A study of Mus musculus with 12 samples.

Results

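B cell and plasma cell transcripts were examined in bulk RNA-seq of dorsal root ganglia (DRG), the clusters of sensory neurons and Schwann cells beside the spinal cord. The genes were 9 chosen by symbol, Cd79a, Cd79b, Ms4a1, Pax5, Ighm, Igkc, Igha, Jchain and Mzb1, and all 9 were found among the 49315 genes of the count table. Each of 12 mice aged 10 months gave 1 library from about 8 DRG. The Nf2 mice (n = 6) were Postn-Cre(+);Nf2 flox/flox, and the double knockout (DKO) mice (n = 6) carried in addition Fak1 flox/flox. In both genotypes a Periostin promoter drove the Cre recombinase, so all 12 mice shared the Cre and the floxed Nf2 alleles and differed by the floxed Fak1 alleles, and no mice without Cre were analysed here. Each genotype held 3 mice labelled male and 3 labelled female.

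B cells carry a membrane antibody, the B cell receptor, and on activation some become plasma cells, which stop displaying the receptor and secrete antibody in bulk. The signaling partners of the receptor (Cd79a and Cd79b), the surface protein CD20 (Ms4a1) and the transcription factor that holds B cell identity (Pax5) mark B cells, and Pax5 is silenced when plasma cells form. Jchain joins antibody units into the polymers of IgM and IgA, Mzb1 is an endoplasmic reticulum chaperone of antibody-secreting cells, and Ighm, Igha and Igkc encode the constant regions of the IgM heavy chain, the IgA heavy chain and the kappa light chain.

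Libraries held 21129191 to 41250329 counts, and levels are given as CPM, the count of a gene scaled to a common library total. In the library of mouse 702, labelled male, Xist had 496 CPM and the Y-linked Ddx3y 0.525 CPM, against 0.364 to 6.17 and 76.0 to 86.3 CPM in the other 5 libraries labelled male. This library went against its label, and tests by sex are given with and without it. Ptk2, the mouse gene of Fak, had 65.8 to 75.5 CPM in Nf2 and 46.5 to 76.0 CPM among DKO mice, so that whole-gene counts of mixed tissue did not separate the genotypes. Lists of 11 sensory neuron and 8 Schwann cell genes had summed levels of 5331 to 7240 and 8204 to 11810 CPM.

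The B lineage transcripts were scarcer. Per kilobase of exon, which allows levels to be compared between genes, mean levels over the 12 mice were highest for Igkc (35.7 CPM per kb), followed by Ighm (10.7), Igha (8.16) and Jchain (5.12). The B cell markers lay well below these antibody genes, at 1.06 CPM per kb for Cd79a, 0.635 for Cd79b, 0.121 for Pax5 and 0.0654 for Ms4a1, and Mzb1 had 0.302 CPM per kb. Every gene was detected in all 12 mice, but Ms4a1 rested on 2 to 35 reads per mouse and Mzb1 on 2 to 22. Counting error alone is therefore large for these last genes. In bulk tissue, fewer cells of a type and less RNA per cell cannot be told apart.

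None of the 9 genes passed the comparison of DKO with Nf2 DRG (edgeR quasi-likelihood test, Benjamini-Hochberg adjusted p under 0.05 over 18295 tested genes), where 0.94% of all tested genes passed in either direction and 0.372% passed as higher in DKO. The fitted log2 fold change of DKO over Nf2 was above 0 for 8 of the 9 genes and below 0 for Ighm. Its median over the 9 genes was 0.75, beside 0.005 over all tested genes. At an unadjusted p under 0.05 stood 4 of the 9 genes, namely Pax5, Cd79a, Ms4a1 and Cd79b, against 14.9% of all tested genes. None of the 9 separated the genotypes without overlap, which 1.95% of all tested genes did. DESeq2 called 1 of the 9, Pax5 (adjusted p = 0.00957), where it called 4.54% of all tested genes. Limma voom with sample quality weights also called 1, Cd79a (adjusted p = 0.0472), against 2.85% of all genes, and limma-trend called 0 of the 9, against 0.978%.

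**Figure D1:**
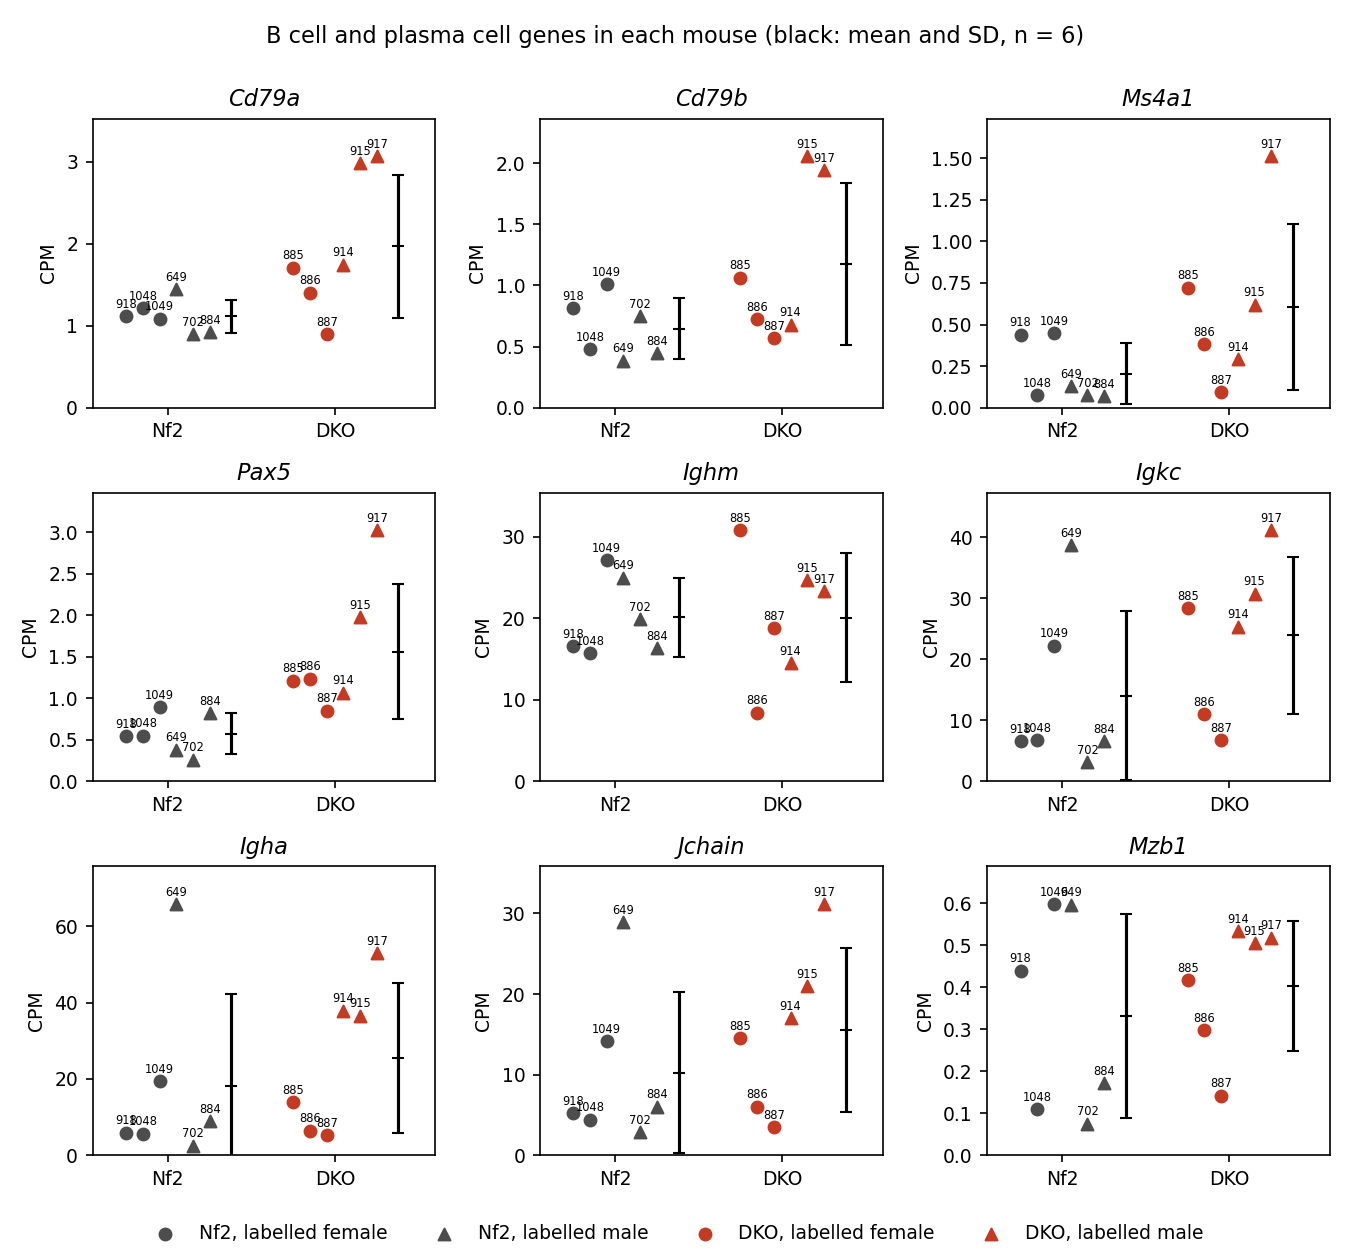
Level of each of the 9 genes in CPM (vertical axis, from 0) in every mouse, numbered, with Nf2 mice in grey and DKO mice in red, circles for labelled females and triangles for labelled males, and the mean and SD (n = 6) in black. Pax5 is above the highest Nf2 level in 5 of 6 DKO mice, Ighm overlaps fully between genotypes, from 8.43 to 30.8 CPM, and Nf2 mouse 649 reaches 65.8 CPM of Igha.

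Among the B cell markers, Pax5 came closest to the threshold. Pax5 (ENSMUSG00000014030, GRCm38 chromosome 4, 44524757 to 44710487, minus strand) had 0.263 CPM in the lowest Nf2 mouse, a median of 0.546 and 0.897 in the highest, and 0.852, 1.22 and 3.02 CPM among DKO mice. Only DKO mouse 887 fell within the Nf2 range, and the other 5 DKO mice lay above every Nf2 mouse. The mean was 0.576 ± 0.245 CPM in Nf2 and 1.56 ± 0.810 CPM in DKO mice (SD, n = 6), and the log2 fold change was 1.40 ± 0.35 (SE), which did not pass the adjusted threshold (edgeR adjusted p = 0.0798). Leaving out each mouse in turn kept the log2 fold change between 1.11 and 1.56. The gene was counted from 7 to 70 reads per mouse, and it shares exonic bases with 5730488B01Rik and Gm12462, whose reads cannot be told apart from its own where the handling of strand is not given.

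Cd79a and Cd79b encode the paired signaling chains of the B cell receptor. Cd79a (ENSMUSG00000003379, chromosome 7, 24897381 to 24902197, plus strand) had 0.900 CPM in the lowest Nf2 mouse, a median of 1.10 and 1.45 in the highest, and 0.899, 1.73 and 3.07 CPM among DKO mice. The Nf2 mice were tightly grouped, and 4 DKO mice lay above all of them while mouse 887 lay at their lower edge. The log2 fold change was 0.80 ± 0.27 (SE) at an edgeR adjusted p of 0.176. Cd79b (ENSMUSG00000040592, chromosome 11, 106311341 to 106314762, minus strand) had 0.383, 0.613 and 1.01 CPM as lowest, median and highest among Nf2 mice and 0.568, 0.893 and 2.06 CPM among DKO mice. Here 3 DKO mice, 885, 915 and 917, exceeded every Nf2 mouse and the others overlapped. The log2 fold change was 0.82 ± 0.37 (SE) at an edgeR adjusted p of 0.311.

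Ms4a1, a surface protein of mature B cells that is lost in plasma cells, had the fewest reads of the B cell markers. Ms4a1 (ENSMUSG00000024673, chromosome 19, 11249675 to 11266241, minus strand) had 0.0683, 0.101 and 0.449 CPM as lowest, median and highest among Nf2 mice and 0.0947, 0.502 and 1.51 CPM among DKO mice. At most 3 reads were counted in Nf2 mice 649, 702, 884 and 1048 and in DKO mouse 887, and the highest count was 35 reads in DKO mouse 917. The log2 fold change of 1.48 ± 0.62 (SE) had an edgeR adjusted p of 0.276, and it was 0.99 without mouse 917. The summed level of Cd79a, Cd79b, Ms4a1 and Pax5 was 1.99 to 3.44 CPM among Nf2 mice, with a median of 2.33, and 2.41 to 9.54 CPM among DKO mice, with a median of 4.24.

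The antibody genes Igkc, Igha and Jchain differed widely from mouse to mouse within a genotype. Igkc (ENSMUSG00000076609, chromosome 6, 70726435 to 70726966, plus strand) had 3.19, 6.70 and 38.8 CPM as lowest, median and highest among Nf2 mice and 6.72, 26.9 and 41.2 CPM among DKO mice. All 6 DKO mice were above the Nf2 median, but Nf2 mice 649 and 1049 lay inside the DKO range. Jchain (ENSMUSG00000067149, chromosome 5, 88519809 to 88527891, minus strand) had 2.89, 5.61 and 28.9 CPM among Nf2 mice and 3.50, 15.8 and 31.2 CPM among DKO mice. Igha (ENSMUSG00000095079, chromosome 12, 113254830 to 113260236, minus strand) had 2.51, 7.43 and 65.8 CPM among Nf2 mice and 5.25, 25.2 and 53.0 CPM among DKO mice. For Igha the highest of all 12 mice was an Nf2 mouse, 649, and both genotypes spanned more than a 10-fold range.

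The log2 fold changes of these antibody genes were 0.75 ± 0.57 (SE) for Igkc, 0.58 ± 0.58 for Jchain and 0.47 ± 0.75 for Igha, with edgeR adjusted p-values of 0.595, 0.700 and 0.819. Each of them was moved by more than 1.5 times by at least 1 single mouse. Without Nf2 mouse 649 they were 1.38, 1.23 and 1.57, with adjusted p-values of 0.214, 0.278 and 0.255. Without DKO mouse 917 they were 0.53, 0.26 and 0.13, and without Nf2 mouse 702 those of Jchain and Igha were 0.37 and 0.24. The value for Igha was also 0.28 without Nf2 mouse 1048 and 0.29 without Nf2 mouse 918. None passed the threshold in any of the 12 fits that left out 1 mouse.

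Ighm and Mzb1 showed the smallest differences. Ighm (ENSMUSG00000076617, chromosome 12, 113418558 to 113422730, minus strand), which B cells use before they switch class, had 15.7, 18.2 and 27.1 CPM as lowest, median and highest among Nf2 mice and 8.43, 21.1 and 30.8 CPM among DKO mice. The DKO mice surrounded the Nf2 range on both sides, with mouse 886 lowest and mouse 885 highest of all 12. Its log2 fold change was -0.02 ± 0.25 (SE) at an edgeR adjusted p of 0.979. Mzb1 (ENSMUSG00000024353, chromosome 18, minus strand) had 0.0750, 0.305 and 0.598 CPM among Nf2 mice and 0.142, 0.461 and 0.533 CPM among DKO mice. The DKO range lay inside the Nf2 range, and the log2 fold change was 0.29 ± 0.47 (SE) at an edgeR adjusted p of 0.822, and it ranged from 0.085 without mouse 702 to 0.54 without mouse 1049 when each mouse was left out, with mice 649, 884, 887, 914 and 1048 also moving it by more than 1.5 times. Mzb1 shares exonic bases with the neighbouring Spata24.

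The order of the mice was similar for several of the genes. DKO mouse 917 had the highest level of Cd79a, Ms4a1, Pax5, Igkc and Jchain, and Nf2 mouse 702 the lowest of Pax5, Igkc, Igha, Jchain and Mzb1. DKO mouse 887 ranked 11 of 12 for Igha and Jchain and 12 of 12 for Cd79a, so it resembled the lower Nf2 mice. Ighm followed another order, with mouse 917 at rank 5 and mouse 702 at rank 6. Nf2 mouse 649 split the genes, ranking 1 for Igha and 2 for Igkc, Jchain and Mzb1, but 11 for Pax5 and 12 for Cd79b.

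**Figure D2:**
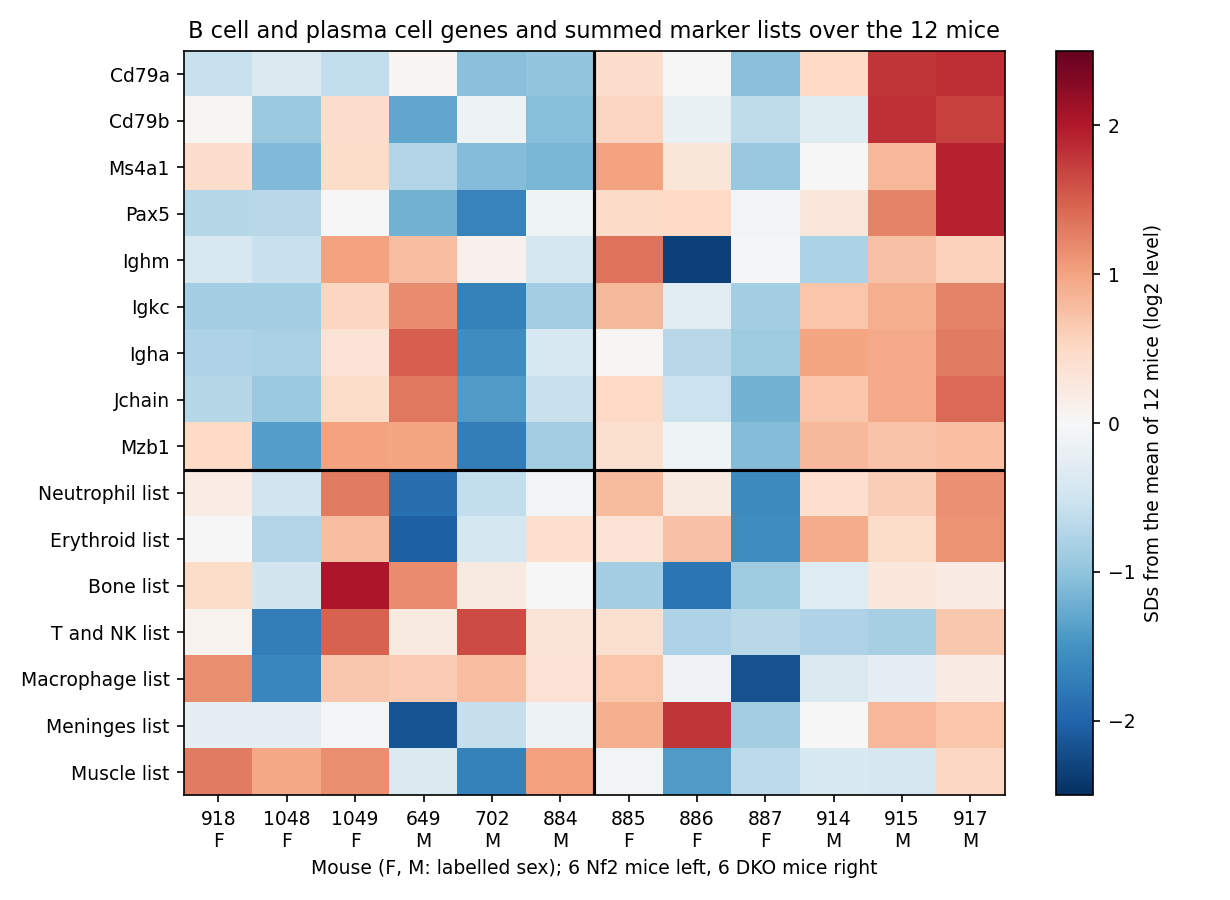
Each row is 1 of the 9 genes or the summed level of a marker list, each column a mouse (6 Nf2 left, 6 DKO right), and colour gives the distance from the mean of the 12 mice in SDs of the log2 level (0.1 CPM added for the 9 genes). Mouse 917 is high and mouse 702 low for most of the 9 genes, while mouse 649 is high for Igha, Igkc and Jchain and lowest for the neutrophil list (14.0 CPM) and the erythroid list (38.2 CPM).

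The balance between secreted antibody genes and B cell markers set mouse 649 apart. The genes of these sums were chosen after the values were seen, and Ighm and Mzb1 are in neither sum. The sum of Jchain, Igkc and Igha was 133 CPM in this mouse and 8.59 to 55.8 CPM in the other 5 Nf2 mice, while its 4 B cell markers summed to 2.34 CPM, close to the Nf2 median of 2.33. The ratio of these sums was 57.0 in mouse 649 and lay between 4.32 and 21.2 in the other 11 mice. DKO mice had 15.5 to 125 CPM of the secreted genes, and their ratio of 6.28 to 21.2 overlapped that of the Nf2 mice.

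Heavy chain isotypes were compared as shares of all heavy chain constant counts (Ighm, Ighd, Ighg1, Ighg2b, Ighg2c, Ighg3, Igha and Ighe). These shares were not independent of the antibody level, as Ighm varied less between mice (8.43 to 30.8 CPM) than Igha (2.51 to 65.8 CPM). Mice 702 and 649, with the lowest and highest sums of Jchain, Igkc and Igha (8.59 and 133 CPM), had Ighm shares of 81.4% and 24.9%. DKO mouse 886 departed from this, with a low share of 29.1% at a low sum of 23.5 CPM. The part of the antibody level in the share differences was not tested. Mouse 702 had 530 Ighm counts beside 88 light chain constant counts, and mouse 649 had 587 beside 948. The shares are of RNA counts, and whether all Ighm counts came from cells that make antibody was not tested. The tests were two-sided exact permutation tests that used every way to divide the mice into groups of 6, which cannot give a p below 0.00216, and were adjusted over 4 shares. Ighm took 24.9% to 81.4% of these counts among Nf2 mice, with a median of 53.1%, and 22.2% to 52.5% among DKO mice, with a median of 29.4%. The mean share was 51.6% ± 20.6 in Nf2 and 32.6% ± 11.7 in DKO mice (SD, n = 6), with an exact permutation p of 0.0779 and an adjusted p of 0.221. The share was below the Nf2 mean in 5 of 6 DKO mice, and the difference did not pass the threshold.

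The IgG genes together took 5.22% to 40.99% of heavy chain counts among Nf2 mice and 17.3% to 42.9% among DKO mice. In Nf2 mice they fell into low shares of at most 9.37% in mice 918, 649, 702 and 884 and shares of 33.4% and 40.99% in mice 1048 and 1049, while all 6 DKO mice lay above the Nf2 mean of 17.2%. The difference of 13.4 percentage points had an exact permutation p of 0.110 and an adjusted p of 0.221. The Igha share was 28.6% ± 19.5 in Nf2 and 34.6% ± 18.7 in DKO mice (SD, n = 6; exact permutation p = 0.584). The difference of 6.00 percentage points ranged from 1.18 without DKO mouse 914 to 13.4 without Nf2 mouse 649, and it also moved by more than 1.5 times without mouse 702 (2.33), 917 (2.85), 1048 (3.69), 885 (9.35) or 887 (9.99). It was highest in Nf2 mouse 649 at 65.6% (95% Wilson interval 63.6% to 67.5%) and lowest in Nf2 mouse 702 at 10.3% (8.19% to 12.9%). Igkc took 94.7% to 98.4% of light chain constant counts in Nf2 and 93.9% to 98.6% in DKO mice (exact permutation p = 0.896), so kappa was the prevailing light chain in every mouse. Intervals cover counting error only, and whole-gene counts do not separate membrane from secreted forms of a heavy chain.

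**Figure D3:**
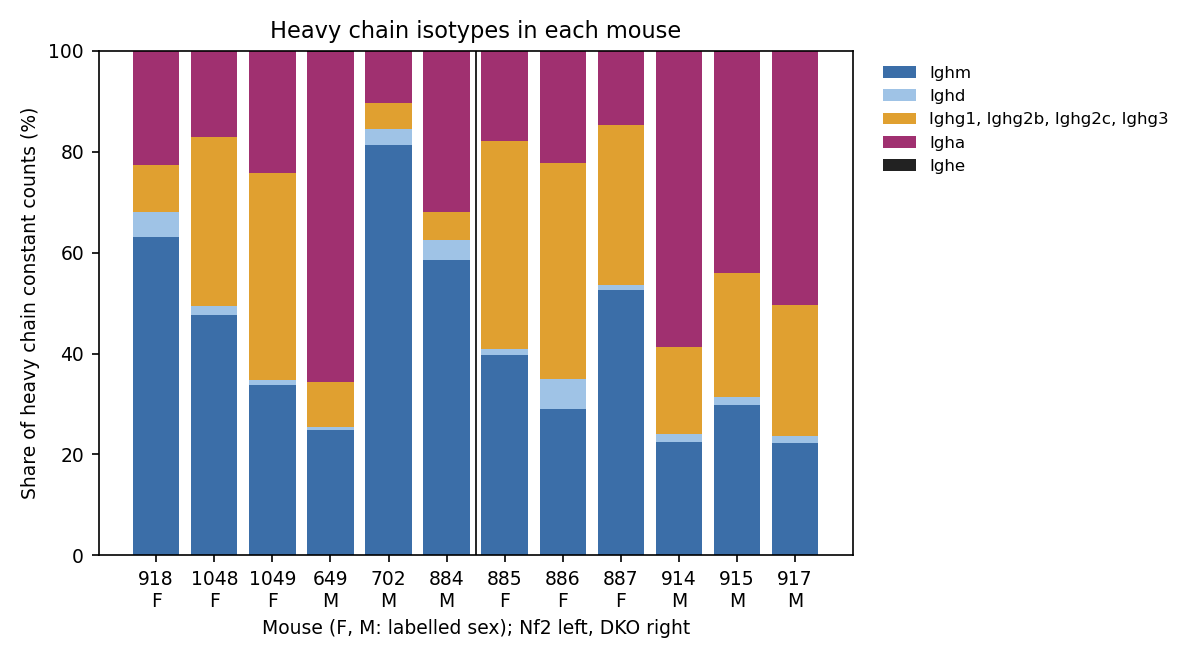
Stacked bars give the share of heavy chain constant counts (percent, from 0 to 100) taken by IgM, IgD, IgG, IgA and IgE genes in each mouse, Nf2 left and DKO right. IgG (yellow) takes at most 9.37% in 4 of 6 Nf2 mice and at least 17.3% in every DKO mouse, and IgA (purple) takes most of the counts in Nf2 mouse 649 and in DKO mice 914 and 917.

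The single IgG genes were examined beside the 9 genes. Ighg1, the constant region of IgG1, had 0.638 to 5.38 CPM among Nf2 mice and 3.55 to 15.9 CPM among DKO mice, overlapping through Nf2 mouse 1049. Its log2 fold change was 1.69 ± 0.51 (SE) at an edgeR adjusted p of 0.134, and without mouse 1049 it was 2.27 with an adjusted p of 0.0489. Ighg2c had 0.239 to 14.2 CPM in Nf2 and 4.47 to 11.9 CPM among DKO mice, and Ighg2b had 0.239 to 12.9 and 1.89 to 8.59 CPM. Their log2 fold changes of 0.87 ± 0.76 and 0.50 ± 0.74 (SE) had edgeR adjusted p-values of 0.649 and 0.805. Of the 9 other immunoglobulin constant genes, 5 were tested and none passed.

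Other genes of the lineage were taken from written lists. Of 22 further B cell identity genes, 16 were tested and none passed, with 11 fitted values above 0, 5 below and a median log2 fold change of 0.14. The most abundant of them, Ebf1, Ralgps2, Bach2 and Pou2f2, are also expressed outside B cells and had log2 fold changes of 0.02, 0.20, 0.07 and -0.02. Pou2af1, a B cell transcriptional coactivator, was singled out after its values were seen. It had 0.0683 to 0.860 CPM in Nf2 and 0.237 to 1.94 CPM in DKO mice, and its log2 difference was 1.53 ± 0.56 (SE) at an edgeR adjusted p of 0.212. As for Pax5, mouse 917 was the highest of all 12 mice. Also named after their values were seen, Cd72 and Bank1, which act on B cell receptor signaling, had -0.49 ± 0.21 and -0.42 ± 0.18 (SE), at edgeR adjusted p-values of 0.299 and 0.294.

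Genes of receptor signaling that B cells share with myeloid cells did not follow the B cell markers in sign. Of 12 genes, all tested, none passed, 9 had fitted values below 0, and the median log2 fold change was -0.13. Prkcb, a kinase below the receptor, had 0.24 ± 0.07 (SE) and Inpp5d, an inhibitory phosphatase, had -0.40 ± 0.15, with edgeR adjusted p-values of 0.112 and 0.209. Pik3cd and Bcl10, also among the most abundant of the list, had 0.04 ± 0.06 and -0.15 ± 0.07 (SE), with edgeR adjusted p-values of 0.798 and 0.347. Of 9 precursor genes listed, Il7r, Cd93 and Flt3, which other cells also express, were tested and none passed. The other 6 had too few counts to be tested, and among them Rag1, a recombinase of early B and T cells, had 0 to 0.892 CPM and Dntt 0 to 0.432 CPM.

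Plasma cell genes were examined in the same way. Of 16 listed, 15 were tested and none passed, with 7 fitted values above 0, 8 below and a median log2 fold change of -0.11. Most of them serve secretion in many cells, and the most abundant, Xbp1, Txndc5, Sec11c and Ssr4, had log2 fold changes of 0.01, -0.11, 0.08 and -0.13. The receptor BCMA gene Tnfrsf17, restricted to the late B lineage, had 0 to 0.228 CPM and was not tested. Tnfrsf13b, the receptor TACI, was the only gene of the list that separated the genotypes, which 1.95% of all tested genes did. It had 2.82 to 4.09 CPM in Nf2 and 1.89 to 2.79 CPM among DKO mice. Its log2 fold change of -0.49 ± 0.14 (SE) had an edgeR adjusted p of 0.115. DESeq2 and limma voom placed it past the threshold with adjusted p-values of 0.0343 and 0.0419, where they called 4.54% and 2.85% of all tested genes. Sdf2l1 had the smallest edgeR adjusted p of the list, 0.0792, with a log2 fold change of -0.35 ± 0.09 (SE). Derl3 had the opposite sign, at 0.66 ± 0.31 (SE) with an edgeR adjusted p of 0.346.

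Signals that attract or sustain B cells did not pass either. Of 13 listed, 7 were tested, with 3 fitted values above 0, 4 below and a median log2 fold change of -0.03. Cxcl13, a chemokine that draws B cells into follicles, had 6.49 to 16.3 CPM in Nf2 and 0.852 to 9.58 CPM among DKO mice, which gave -1.33 ± 0.47 (SE) on the log2 scale at an edgeR adjusted p of 0.190. Tnfsf13b, the survival factor BAFF, had -0.40 ± 0.14 with an adjusted p of 0.199. The fitted values of both were thus opposite in sign to those of the B cell markers. Those of Lta (0.25), Il7 (0.20) and Tnfsf13 (0.04) in the same list had the sign of the markers. Cxcl12, which retains B cells and plasma cells in marrow, had a log2 fold change of -0.03.

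**Figure D4:**
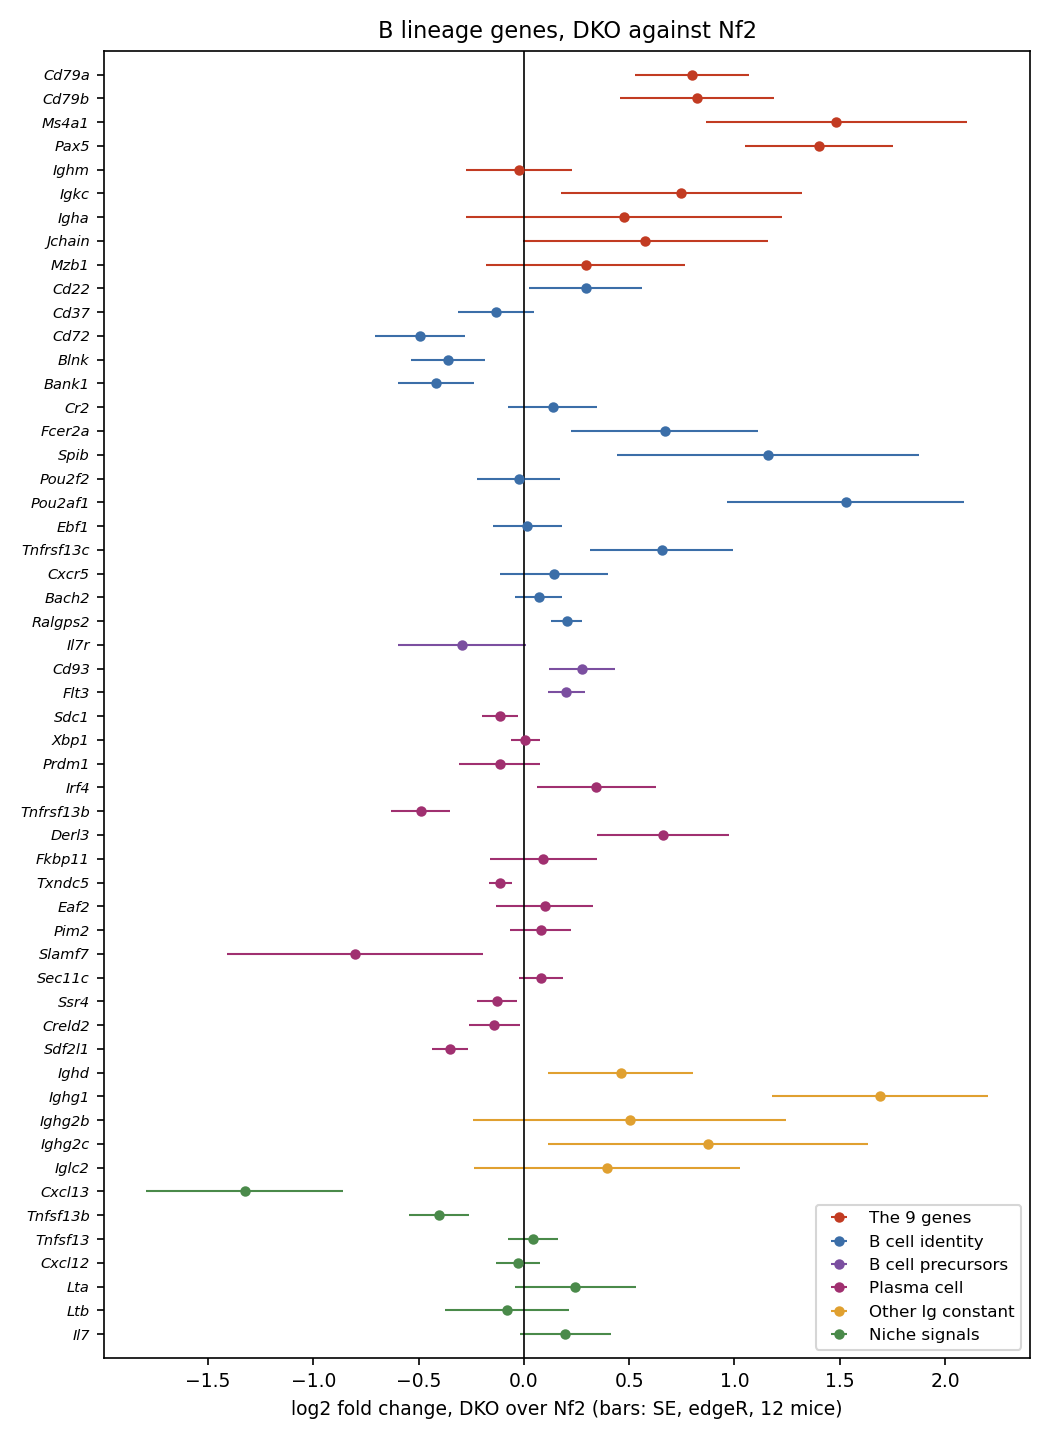
Log2 fold change of DKO over Nf2 (horizontal axis, edgeR, 12 mice) with its SE for the 9 genes and tested genes of the lists of B cell identity, precursors, plasma cells, other immunoglobulin constant genes and niche signals. Pax5 (1.40) and Ms4a1 (1.48) lie farthest right of the 9 genes, beside Pou2af1 (1.53) and Ighg1 (1.69), Ighm lies at -0.02 and Cxcl13 at -1.33, and none of these genes passed the adjusted threshold.

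Markers of other cells moved with some of these levels. All 12 genes of a neutrophil and marrow precursor list had fitted values above 0 in DKO (median log2 fold change 0.53, none passed), and their summed level was 14.0 to 600 CPM in Nf2 and 19.9 to 493 CPM among DKO mice. An erythroid list of 10 tested genes likewise had 10 fitted values above 0 (median 0.70, none passed), with sums of 38.2 to 591 and 61.4 to 822 CPM. None of the tested genes of these lists was at 0 in a whole genotype, and S100a8 ranged from 1.66 to 93.0 CPM. DKO mouse 917 was high in these lists as well as in the B cell markers, and DKO mouse 887 was low in both. Nf2 mouse 1049 was the highest of all mice for neutrophil genes at 600 CPM, with 3.44 CPM of the summed B cell markers, while Nf2 mouse 649, the lowest at 14.0 CPM, had the highest Igha. The part of the erythroid level in these differences was not tested.

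The log2 neutrophil level of each mouse was also used as a covariate, an alternative added after the data were seen. The log2 fold change was then 1.14 for Pax5 (edgeR adjusted p = 0.0704), 0.66 for Cd79a, 0.53 for Cd79b and 0.90 for Ms4a1. It was 0.70 for Igkc, 0.55 for Jchain and 0.78 for Igha, beside 0.75, 0.58 and 0.47 without the covariate. Ighm had -0.07 and Mzb1 0.13 with the covariate. In this fit 0 of the 9 genes passed, beside 231 of 18295 tested genes. At an unadjusted p under 0.05 stood Pax5 and Cd79a, but not Ms4a1 and Cd79b. The share of all tested genes at that level was 14.9% without the covariate. It was not counted with the covariate, so these calls have no background to be read against. A meninges list of 6 genes had 6 fitted values above 0 (median 1.03, none passed) and sums of 12.9 to 43.5 CPM in Nf2 and 27.2 to 125 CPM among DKO mice. DKO mice 885, 915 and 917, with the next highest meninges sums (74.3, 71.7 and 66.7 CPM) after mouse 886 (125 CPM), had the highest B cell marker sums (4.71, 7.64 and 9.54 CPM), mouse 886 had 3.75 CPM of the markers, and mouse 887 was low in both. The part of the meninges level in the B cell levels was not tested. Skeletal muscle genes had sums of 13.9 to 1085 CPM in Nf2 and 20.7 to 346 CPM among DKO mice, with all 10 fitted values below 0, and their part was not tested either. T and NK cell genes had sums of 6.78 to 13.7 CPM in Nf2 and 8.18 to 11.2 CPM among DKO mice, with 9 of 11 fitted values below 0, and did not follow the B cell markers in sign. Of 11 macrophage genes, 9 had fitted values below 0 and 1, the complement gene C1qb, passed as lower in DKO (log2 fold change -0.71).

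**Figure D5:**
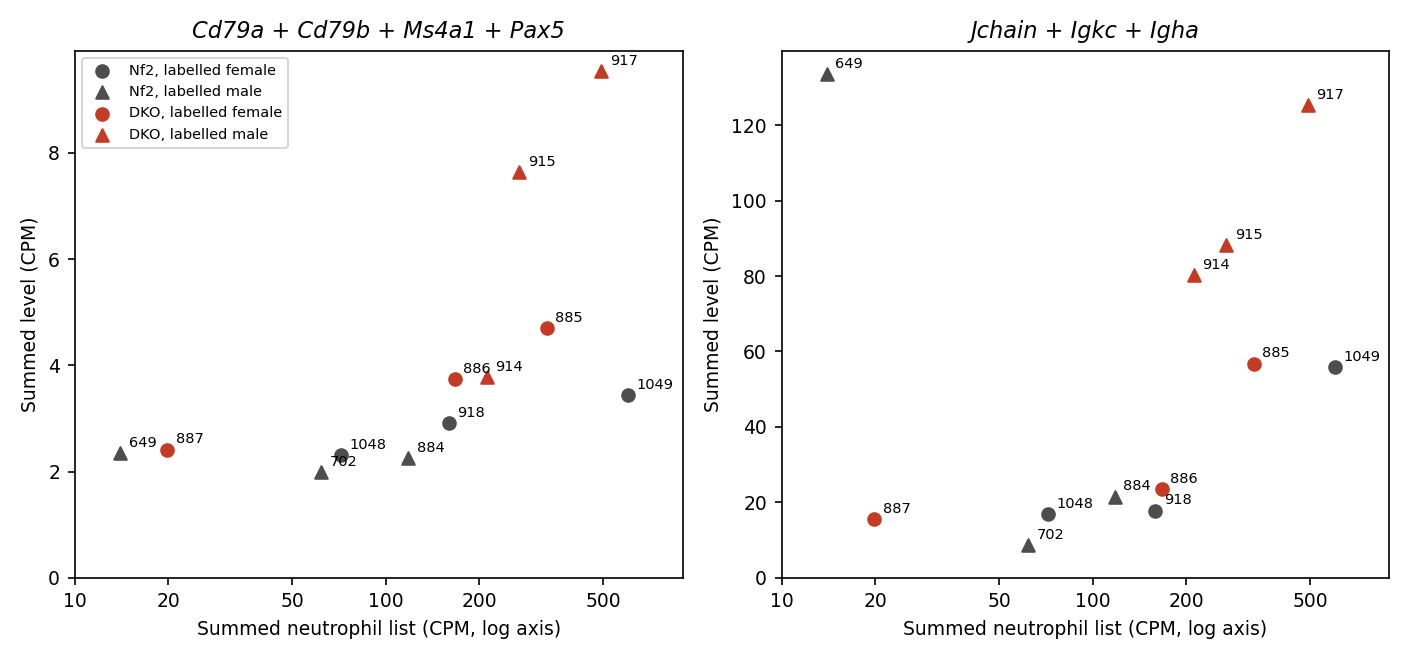
Summed level in CPM (vertical axes, from 0) of the B cell markers Cd79a, Cd79b, Ms4a1 and Pax5 (left) and of Jchain, Igkc and Igha (right) against the summed neutrophil list (CPM, log axis), 1 point per mouse. DKO mice 915 and 917 have the highest B cell marker sums (7.64 and 9.54 CPM), and Nf2 mouse 649 has 133 CPM of the antibody genes at the lowest neutrophil level.

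By labelled sex, all 9 genes averaged highest in DKO males, Ighm by little (20.8 CPM against 20.4 CPM in Nf2 males). The values of Cd79a and Pax5 follow. Cd79a averaged 2.60 ± 0.740 CPM in DKO males and 1.34 ± 0.408 in DKO females, against 1.09 ± 0.310 in Nf2 males and 1.14 ± 0.0656 in Nf2 females (SD, n = 3 each). Pax5 averaged 2.02 ± 0.979, 1.10 ± 0.215, 0.489 ± 0.293 and 0.663 ± 0.203 CPM in the same order. The log2 fold change of Cd79a was 0.24 in females alone and 1.20 in males alone, and that of Pax5 was 0.73 and 1.96. The values for Nf2 males and for males alone include mouse 702, and the other 2 Nf2 males, 649 and 884, had 1.45 and 0.922 CPM of Cd79a and 0.383 and 0.820 CPM of Pax5. The difference between the effects in males and females was 0.96 for Cd79a and 1.22 for Pax5 on the log2 scale, and 0.84 and 0.93 without mouse 702. None of the 9 genes passed the test of the difference between these effects over all genes. By unadjusted p the closest with all mice was Ms4a1, with a difference of 2.68 ± 1.20 (SE; unadjusted p = 0.0461, edgeR adjusted p = 0.920). It rests on 3, 2 and 2 reads in the labelled Nf2 males 649, 702 and 884. Without mouse 702 the closest was Cd79b, with 1.79 ± 0.71 (SE; unadjusted p = 0.0296, edgeR adjusted p = 0.772). Of all tested genes, 4.78% and 5.21% had an unadjusted p under 0.05 with and without this mouse.

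Igha differed most between the labelled sexes. DKO females had 5.25 to 13.9 CPM and DKO males 36.5 to 53.0 CPM, while Nf2 females had 5.65 to 19.4 CPM and Nf2 males 2.51 to 65.8 CPM. The lowest Nf2 male was mouse 702, and without it Nf2 males had 8.92 and 65.8 CPM. The DKO sexes did not overlap and the Nf2 sexes did, with or without mouse 702. This was not particular to Igha, as the DKO sexes did not overlap for Cd79a, Jchain and Mzb1 either. The share of all genes that separate 3 mice from 3 in this way was not counted, so the separation is only described. The male minus female log2 difference of Igha, with genotype as a covariate, was 1.82 ± 0.63 (SE). It did not pass (unadjusted p = 0.0134, edgeR adjusted p near 1), and without mouse 702 it was 2.11 ± 0.49 with an adjusted p of 0.877. Jchain had 1.10 ± 0.53 with all mice and 1.35 ± 0.46 without mouse 702.

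Promoter sequences were searched for letters tied to the lineage. RefSeq promoters of GRCm38 (250 bases before to 50 after the start) were held for Pax5, Jchain and Cd79a among the 9 genes. None of the 3 contained, on either strand, the immunoglobulin octamer ATGCAAAT, the EBF1 half-sites CCCNNGGG or the XBP1 letters TGACGTGG, which occurred in 1.74%, 13.7% and 0.676% of 32851 promoters. Of the 33 promoters held for the B cell identity and plasma cell lists, 3 had the octamer (Vpreb3, Blnk and Pim2), 6 the EBF1 letters (Bank1, Cd22, Spib, Sdc1, Txndc5 and Eaf2) and 2 the XBP1 letters (Pou2af1 and Txndc5).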

How the data were processed

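Bulk poly(A) RNA-seq of DRG from 6 Nf2 and 6 DKO mice was analysed, grouped by GEO's labels. The authors deposited raw counts per Ensembl gene without normalization. Their processing notes name Trimmomatic 0.36, STAR 2.5.2b and featureCounts of Subread 1.5.2, and strand and multiply matching reads are not given in the sources used here. The study plotted log2(CPM + 4). Symbols and exon lengths came from the table and GENCODE M21 (GRCm38), which matched 99.3% of 49315 genes.

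Total counts were 21129191 to 41250329. No pair of libraries was alike within sampling noise (chi-square per degree of freedom at least 9.73 over 66 pairs). Counts were fitted in edgeR 4.0.16 (R 4.3.3) with filterByExpr, TMM and the quasi-likelihood test on 12 mice, which left 18295 genes, with Benjamini-Hochberg adjustment at 0.05. The p-values measure the spread between mice. Shares used exact permutation in scipy 1.17.1. The fits were tested on simulated data. Alternatives were other scaling, filters, DESeq2 1.42.0, limma 3.58.1 (voom with sample quality weights, trend), sex as covariate or split, and leaving out each mouse.

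The 9 genes, the 15 lists of other genes and the tests were chosen with earlier results of these data known. Named were the 9 genes, list genes past the threshold or else up to 4 most abundant per B lineage list (3 per other list), the 5 genes most alike over mice, and the top variable gene per mouse. Others are named after their values were seen: Pou2af1, Cd72, Bank1, Rag1, Dntt, Tnfrsf17, Tnfrsf13b, Sdf2l1, Derl3, Lta, Il7 and those with a promoter motif. Of the tested list genes, 1, counted in its list's totals, is not reported here.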

Additional observations from a re-analysis of the deposited data

Results flagged for a closer look

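Each of the 9 genes, the isotype shares and the ratio of secreted to B cell marker genes were examined in both genotypes, 28 groups of 6 mice, for a mouse whose gap to its neighbour exceeded Dixon's 95% critical share of the group's range. Chance gives about 1 in 20 groups, or 1.4 here, and 2 groups were found, both through Nf2 mouse 649. These finds are not independent, because Igha is part of the ratio. The chance rate does not hold for the ratio, whose genes were chosen after the values were seen. Its Igha level of 65.8 CPM stood above 19.4 CPM in the next Nf2 mouse. Its ratio of Jchain, Igkc and Igha to Cd79a, Cd79b, Ms4a1 and Pax5 was 57.0, against 16.2 in the next. The same mouse had the lowest sums of neutrophil, erythroid and meninges genes of all 12 mice (14.0, 38.2 and 12.9 CPM). The part of these in its Igha level was not tested.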

How the results depend on the processing

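No paired analysis was possible because the mouse numbers are not shared between genotypes. The 9 genes were refitted under 25 alternatives, giving 218 fits with an adjusted p, of which 207 kept the direction and the side of the threshold (DESeq2 gave no adjusted p for Ms4a1 and Mzb1, and Ms4a1, Cd79b, Pax5 and Mzb1 were not tested at 1 CPM in 6 mice, nor Ms4a1 in males). Pax5 passed with DESeq2 (1.41) and Cd79a with limma voom (0.96), so 1 of the 9 genes passed with each, and 0 in every fit that left out 1 mouse. Voom, which weighted libraries by quality, moved Igkc to 1.58, Igha to 1.497, Jchain to 1.27 and Mzb1 to 0.78 on the log2 scale, and in females Cd79b was 0.040. The sign turned for Igha in females (-0.27) and with sex as covariate without mouse 702 (-0.084), for Mzb1 in the same fits (-0.40 and -0.010), and for Ighm with voom (0.065) and among the fits leaving out 1 mouse (-0.18 to 0.14). Of 58 tested B lineage list genes, 4 passed with DESeq2 (Ighg1, Prkcb, Sdf2l1, Tnfrsf13b), which called 4.54% of all tested genes. With voom, which called 2.85% of all tested genes, 2 of the 58 passed (Sdf2l1, Tnfrsf13b). Fits without 1 mouse called 0 to 1 of the list genes (Inpp5d without 1048, Ighg1 without 1049). Over all genes, 172 passed, and 831 with DESeq2, 521 with voom, 57 in females, 2 in males, 87 with sex as covariate without mouse 702 and 81 to 217 without 1 mouse. The Igha share difference was -3.07 percentage points in females and 1.18 to 13.4 without 1 mouse, and that of Igkc 0.259 in males, 0.131 from variable genes and -0.535 to 0.414 without 1 mouse. The cause was not tested. Few reads limit Ms4a1 and Mzb1.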

Other observations

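Antibody variable genes, which the 9 genes do not cover, gave a second view of the antibody-producing cells. The table held 185 Ighv and 160 Igkv genes. Counted with at least 5 reads, 2 to 28 Ighv genes were detected per Nf2 mouse and 1 to 30 per DKO mouse, and 2 to 40 and 4 to 51 Igkv genes. Mouse 649 had 40 Igkv genes, with Igkv10-96 the most abundant at 18.6% of Igkv counts (95% Wilson interval 15.6% to 21.95%). In DKO mouse 885, Ighv1-20 took 22.98% of Ighv counts (18.1% to 28.8%) and Igkv8-19 took 17.4% of Igkv counts (14.6% to 20.6%). In DKO mouse 917, with the most Ighv counts (357), the top gene Ighv1-81 took 6.44%. Mouse 702 had 34 Ighv counts in all, of which Ighv8-12 took 44.1% (28.9% to 60.5%). This was 15 reads, and Ighv8-12 was also the top Ighv gene in Nf2 mice 918 (20 reads) and 884 (15 reads). Reads of near-identical variable genes may be split between copies.

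Over the 12 mice, the genes whose log2(CPM + 1) was most like the mean standardized level of the 9 genes were 1700007F19Rik (Pearson r = 0.89), 4930432K21Rik (0.88), Cxcr4 (0.88), Dscaml1 (0.87) and Gm42727 (0.87), among 18139 genes ranked, of which 30 had an r above 0.8. The points share library and depth, and r is given as a description. Cxcr4, a chemokine receptor carried by many leukocytes, had 3.83 to 10.4 CPM in the Nf2 and 4.97 to 10.1 CPM in the DKO mice.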
